A study of Homo sapiens with 9 samples.

Results

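EphB receptors and ephrin-B ligands were followed in HT-29 cells, a human colon cancer line, after exposure to 5-Aza (5-aza-deoxy-cytidine). The family is set by gene name and has 8 members among the 23284 gene symbols in the data: the receptors EPHB1, EPHB2, EPHB3, EPHB4 and EPHB6 and the ligands EFNB1, EFNB2 and EFNB3. Paired-end RNA-Seq was run on 9 cultures. The control group was given vehicle alone (DMSO, 0 µM 5-Aza), and the treated groups were given 5 µM or 10 µM 5-Aza, each for 5 days and with 3 biological replicates. All groups are the same cell line with no genetic change between them, so differences between people or between lines are not sampled. EFNB1 is also one of the genes that the study picked from these libraries for a qRT-PCR check, and its direction here is therefore not independent evidence. The qRT-PCR and microarray measurements of the study were not analysed here.

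Eph receptors are receptor tyrosine kinases, and the ephrins that bind them are held in the membrane of the neighbouring cell. Binding therefore sends a signal both ways, forward into the cell with the receptor and in reverse into the cell with the ligand. The ephrin-B ligands span the membrane and carry a tail that is phosphorylated and binds PDZ domain proteins, whereas the ephrin-A ligands are anchored by a lipid. In the intestine, EPHB2 and EPHB3 are known as targets of Wnt signalling in the cells of the crypt base, the ephrin-B ligands are stronger towards the surface, and the contact between both keeps cells of both zones apart. 5-Aza is a cytidine analog that traps the DNA methyltransferases and lowers DNA methylation as cells divide.

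The deposited values are FPKM (fragments scaled by transcript length and library depth), which the authors computed for each gene. FPKM of a library added up to between 3.69e+09 and 5.91e+09, so a value is read here only as a relative level per length. The files hold no read totals, and low genes that step in whole fragments gave the relative library term instead. It was 1.00, 1.51 and 2.14 in the controls, 2.41, 2.29 and 2.57 at 5 µM and 1.27, 2.01 and 1.70 at 10 µM. All 5 µM libraries had a larger term than all others, so they were sequenced deeper by this estimate. The part of depth in the differences of low genes was not tested. Estimated from these steps, EPHB4 rested on 3287 to 12525 fragments per library, EFNB1 on 2224 to 8612, EFNB2 on 2504 to 6982, EPHB6 on 804 to 3223 and EPHB3 on 340 to 980. EPHB2 rested on far fewer, 66.4 to 380. This estimate assumes the length of its main transcript, 11035 nucleotides, which the authors may not have used. With a shorter form the estimate would be lower. EPHB1 and EFNB3 were at the edge of detection, with 0 to 11 and 0 to 8 fragments. All 8 colon epithelial markers (EPCAM, VIL1, CDX1, CDX2, KRT8, KRT18, KRT20 and CDH17) were above 0 in every library.

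Levels differed far more between the members than between the concentrations. In the control, EPHB4 (1131990 ± 38277 FPKM, SD, n = 3) and EFNB1 (1101797 ± 91042 FPKM) were the highest, and their replicates overlapped. EFNB2 followed at 517924 ± 24124 FPKM, then EPHB6 at 191236 ± 36508, EPHB3 at 90361 ± 4671 and EPHB2 at 13730 ± 1550 FPKM. None of these neighbours overlapped in any replicate. EPHB1 (129 ± 116 FPKM) and EFNB3 (112 ± 194 FPKM) came last and did not differ beyond their spread. The order was kept at 5 µM and 10 µM, apart from exchanges between EPHB4 and EFNB1 at the top and between EPHB1 and EFNB3 at the bottom, where the replicates overlapped in all 3 groups. Among the symbols above 0 in a library, EPHB4 stood at percentile 95.3 to 95.8 in DMSO, 89.8 to 91.9 under 5 µM and 91.8 to 92.8 under 10 µM.

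**Figure D1:**
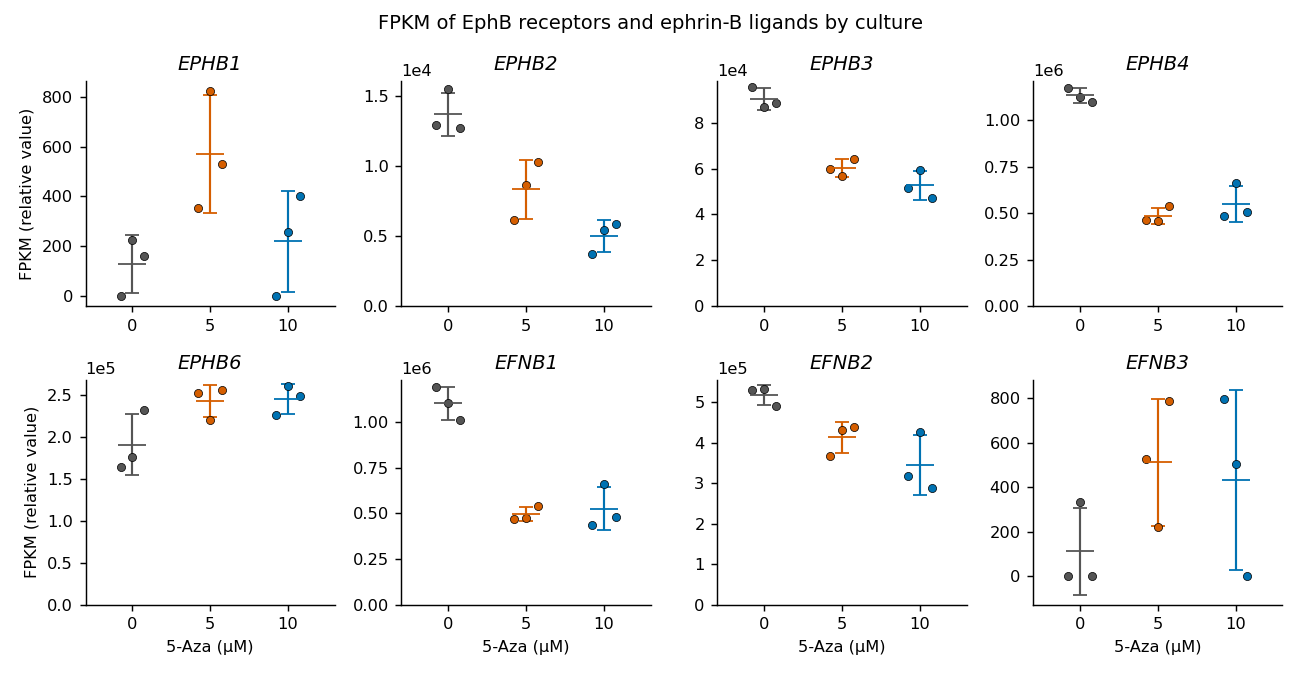
FPKM (y axis, a scale of its own for each gene) of the 8 genes in the 9 cultures by 5-Aza concentration in µM (points, cultures; horizontal lines, mean; error bars, SD, n = 3). EFNB1 and EPHB4 go from about the same control level to about the same treated level, EPHB6 shows no such step down, and EPHB1 and EFNB3 stay within 0 to 822 FPKM.

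Among the ligands, EFNB1 fell to 0.45 of its control level at 5 µM and 0.477 at 10 µM (ratios of mean FPKM). EFNB1 encodes ephrin-B1 and lies on chromosome X of GRCh37 (68048864 to 68062003, plus strand; its main transcript has 5 exons). The control cultures had EFNB1 FPKM of 1192460, 1102550 and 1010380. With 5 µM 5-Aza the values were 470253, 476842 and 540604, and with 10 µM they were 438388, 661632 and 478208. Every treated culture was below every control culture, and 10 µM replicate 2 stood above the other treated cultures. The log2 difference was -1.15 at 5 µM vs. 0 µM (SE 0.09, limma adjusted p = 0.000422) and -1.09 at 10 µM vs. 0 µM (SE 0.19, limma adjusted p = 0.0152). Both comparisons use the same 3 control cultures. Between 5 µM and 10 µM the replicates overlapped, with a log2 difference of 0.06 and a 95% interval from -0.37 to 0.50.

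EFNB2 encodes ephrin-B2, the ligand known as a marker of arterial endothelium, and lies on chromosome 13 (107142093 to 107188010, minus strand). FPKM of EFNB2 was 530737, 532939 and 490097 in DMSO, 368157, 431614 and 439380 under 5 µM 5-Aza and 319020, 427582 and 288612 under 10 µM. The treated cultures were all below the controls, with a smaller step than for EFNB1. The difference of -0.33 on the log2 scale at 5 µM passed the limma test (SE 0.09, adjusted p = 0.0275) but not the fold limit of 2 that the study used for its gene lists. At 10 µM the difference was -0.61 (SE 0.17, limma adjusted p = 0.0518), and it did not pass. EFNB3 was barely measured: the FPKM values were 0, 336 and 0 in DMSO, 527, 222 and 788 under 5 µM and 798, 505 and 0 under 10 µM. In fragments, EFNB3 was counted at 0, 2 and 0, then 5, 2 and 8, then 4, 4 and 0, so no difference could be read at this depth.

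Among the receptors, EPHB4 showed the largest fall of the family at 5 µM, to 0.429 of the control mean. EPHB4 encodes the receptor that pairs with ephrin-B2 in vascular development and lies on chromosome 7 (100400187 to 100425145, minus strand). FPKM of EPHB4 was 1172920, 1125970 and 1097080 in DMSO, 463638, 459065 and 535529 under 5 µM 5-Aza and 483733, 660408 and 503792 under 10 µM. The groups were apart from the control in every culture, and 10 µM replicate 2 was again the highest treated culture. The log2 difference was -1.22 at 5 µM vs. 0 µM (SE 0.08, limma adjusted p = 0.00027) and -1.06 at 10 µM vs. 0 µM (SE 0.16, limma adjusted p = 0.0109). SLC12A9, a protein-coding gene on the opposite strand, overlaps EPHB4, and no use of strand in the counting is stated, so reads from the shared stretch cannot be told apart. FPKM of SLC12A9 went from 350680 ± 26816 to 206677 ± 22700 at 5 µM (n = 3, limma adjusted p = 0.00196) and was 282070 ± 26065 at 10 µM (limma adjusted p = 0.126 vs. 0 µM), and its part in the EPHB4 result was not tested. EPHB1, EPHB2 and EFNB2 overlap only non-coding genes, and the other members overlap none.

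EPHB2 and EPHB3, the receptors of the crypt base, were both lower after 5-Aza. EPHB3 lies on chromosome 3 (184279573 to 184300196, plus strand). FPKM of EPHB3 was 95695, 87003 and 88384 in DMSO, 59633, 56679 and 64318 under 5 µM 5-Aza and 51494, 59583 and 46958 under 10 µM. No treated culture reached the lowest control culture. EPHB3 fell by 0.59 on the log2 scale at 5 µM (SE 0.08, limma adjusted p = 0.00271) and by 0.78 at 10 µM (SE 0.14, limma adjusted p = 0.0183), both within the fold limit.

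EPHB2 lies on chromosome 1 (23037332 to 23247993, plus strand). FPKM of EPHB2 was 12938, 15516 and 12734 in DMSO, 6130, 8672 and 10314 under 5 µM 5-Aza and 3738, 5465 and 5873 under 10 µM. The 3 groups did not overlap, and the values were lower at each higher concentration. The log2 difference was -0.74 at 5 µM vs. 0 µM (SE 0.24, limma adjusted p = 0.0545), which did not pass, and -1.47 at 10 µM vs. 0 µM (SE 0.31, limma adjusted p = 0.0249), which did. The step from 5 µM to 10 µM was -0.73 (95% interval -1.53 to 0.06, limma adjusted p = 0.229). EPHB2 had the widest span of the 6 members above 0 in every library, 4.15-fold from the lowest to the highest culture, against 2.72-fold for EFNB1, 2.56-fold for EPHB4, 2.04-fold for EPHB3, 1.85-fold for EFNB2 and 1.59-fold for EPHB6.

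EPHB6, the member whose kinase domain lacks catalytic activity, did not fall with EPHB2, EPHB3 and EPHB4. EPHB6 lies on chromosome 7 (142552823 to 142568847, plus strand). FPKM of EPHB6 was 164607, 176248 and 232852 in DMSO, 252620, 220870 and 256326 under 5 µM 5-Aza and 226069, 260944 and 249561 under 10 µM. Control replicate 3 lay within the range of the treated cultures, and the other controls lay below them. The log2 difference was 0.36 at 5 µM (95% interval 0.01 to 0.71, limma adjusted p = 0.0932) and 0.37 at 10 µM (95% interval 0.00 to 0.75, limma adjusted p = 0.141), and neither passed. Without control replicate 3, the control that overlapped the treated cultures, the difference at 5 µM was 0.51 with a limma adjusted p of 0.011. Leaving out any other library gave a limma adjusted p from 0.114 to 0.235 at 5 µM. After median-of-ratios scaling the difference at 10 µM was 0.62 with a limma adjusted p of 0.0394, and at 5 µM it was 0.40 with 0.106. All of these stayed within the fold limit.

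EPHB1, on chromosome 3 (134514102 to 134979309, plus strand), had FPKM values of 0, 226 and 160 in DMSO, 355, 822 and 531 under 5 µM and 0, 255 and 402 under 10 µM. The values at 5 µM were all above the control, and those at 10 µM overlapped both groups. They correspond to 0, 2 and 2 fragments in DMSO, 5, 11 and 8 under 5 µM and 0, 3 and 4 under 10 µM. The 5 µM libraries were also the deepest by the estimated library term. The log2 difference at 5 µM vs. 0 µM was 4.02 (SE 2.16, limma adjusted p = 0.181) with 1 FPKM added before the logarithm and 0.47 with 1000 added, so its size depends on the value added. Without control replicate 1, which was listed at 0, it was 1.49 (limma adjusted p = 0.156). EFNB3, on chromosome 17 (7608520 to 7614690, plus strand), behaved the same way, with log2 differences at 5 µM vs. 0 µM of 6.02 (limma adjusted p = 0.0966) and 0.44.

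**Figure D2:**
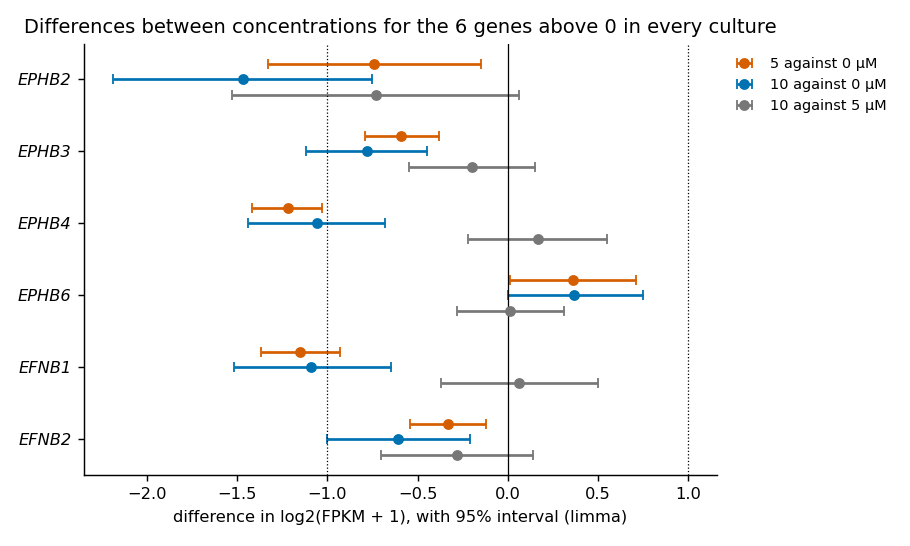
Difference in log2(FPKM + 1) with its 95% interval from limma for the 6 genes above 0 in every culture (points, estimates for 5 vs. 0 µM, 10 vs. 0 µM and 10 vs. 5 µM; dotted lines, the fold limit of 2; solid line, no difference). The estimates of EFNB1 and EPHB4 vs. 0 µM lie past the lower dotted line at both concentrations, that of EPHB2 at 10 µM, and EPHB6 lies above 0 at 0.36 and 0.37.

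Counted over the family, 2 of 8 members were called lower at 5 µM vs. 0 µM (limma, adjusted p up to 0.05 with a fold above 2), where 2.17% of all genes tested were called lower. None was called higher by limma, where 14.1% of all genes tested were, although 1 member (EFNB3) had an unadjusted p under 0.05 with a fold above 2. Without the fold limit, 4 members passed as lower (EFNB1, EPHB4, EPHB3 and EFNB2) beside 17.7% of all genes, and 0 as higher beside 21.3%, while 2 members (EPHB6 and EFNB3) were higher at an unadjusted p under 0.05. All treated cultures lay below all controls for 5 members and above them for 1, beside 23.2% and 29.4% of all genes. The median log2 difference was -0.46 over the 8 members and 0.14 over all genes tested. Over genes above 0 in all 6 libraries, which leaves out genes listed at 0 in a library, the median was -0.04.

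At 10 µM vs. 0 µM, 3 of 8 members were called lower (EPHB2, EFNB1 and EPHB4), beside 3.4% of all genes tested. Again 0 members were called higher by limma, beside 4.07% of all genes, and 0 at an unadjusted p under 0.05 with the fold limit. Without the fold limit, 4 members were lower beside 9.71% of all genes and 0 were higher beside 5.39%, with EPHB6 at an unadjusted p under 0.05. The treated cultures lay wholly below the controls for 5 members, beside 26.7% of all genes, and wholly above for none, beside 14.4%. The median log2 difference was -0.69 over the members and -0.15 over all genes tested. FPKM at 10 µM was lower across the transcriptome: the median gene above 0 in all 6 libraries was shifted by -0.23 on the log2 scale, against -0.04 at 5 µM. Taken relative to that shift, the log2 differences at 10 µM were -1.24 for EPHB2, -0.85 for EFNB1, -0.82 for EPHB4, -0.55 for EPHB3, -0.37 for EFNB2 and 0.61 for EPHB6. With median-of-ratios scaling, which removes the shift, only EPHB2 was called at 10 µM, and EFNB1 (-0.84, limma adjusted p = 0.00448) and EPHB4 (-0.82, limma adjusted p = 0.00282) passed the test within the fold limit. Over all genes, that scaling changed the calls from 771 higher and 644 lower to 1125 higher and 284 lower.

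The calls at 10 µM rest on few libraries. Leaving out control replicate 2, 10 µM replicate 1 or 10 µM replicate 3 left 0 members called lower by limma, leaving out control replicate 1 left 1 (EPHB4), leaving out control replicate 3 left 2 (EFNB1 and EPHB4), and leaving out 10 µM replicate 2 left 3. The size hardly moved, from -1.26 to -0.97 for EFNB1, from -1.20 to -0.97 for EPHB4 and from -1.60 to -1.27 for EPHB2. At 5 µM, EFNB1 and EPHB4 were called lower whichever library was left out. Without control replicate 2, EFNB3 was called higher at 5 µM (log2 difference 8.82, limma adjusted p = 0.00653), against control libraries that were then both listed at 0.

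Between 5 µM and 10 µM, 0 of 8 members were called in either direction by limma, and 0 had an unadjusted p under 0.05, beside 4.82% of all genes called lower and 0.129% called higher (5.85% and 0.319% by the adjusted p alone). The median log2 difference was -0.24 over the members and -0.31 over all genes tested. EPHB2 was the one member whose cultures did not overlap, beside 25.3% of all genes with all replicates lower and 4.37% with all higher. EPHB4 (log2 difference 0.17, 95% interval -0.22 to 0.55), EPHB3 (-0.20, -0.55 to 0.15), EFNB2 (-0.28, -0.70 to 0.14) and EPHB6 (0.01, -0.28 to 0.31) overlapped between the doses.

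Because the library term cancels within a library, the make-up of the family was also compared as shares. EPHB4 held 79.3% ± 2.31 (SD, n = 3) of the summed EphB receptor FPKM in DMSO, then 60.9% ± 1.37 under 5 µM and 64.2% ± 2.36 under 10 µM. The range was 76.7% to 81.1% in the control and 59.3% to 66.9% in the treated cultures, with no overlap. The share of EPHB6 went the other way, from 13.4% ± 2.57 in the control to 30.5% ± 1.56 at 5 µM and 29% ± 2.32 at 10 µM. Shares add up to a fixed whole, so less EPHB4 by itself raises the other shares. The mean FPKM of EPHB6 was 1.27 of the control mean at 5 µM and 1.28 at 10 µM, and neither difference passed in the main fit. EPHB3 held 6.33%, 7.55% and 6.2%, with all 5 µM cultures (7.42% to 7.62%) above the controls (6.18% to 6.62%), although its mean FPKM at 5 µM was 0.666 of the control. EPHB2 held 0.962%, 1.04% and 0.59%, with all 10 µM cultures (0.489% to 0.728%) below the controls (0.89% to 1.1%). Among the ligands, EFNB1 held 68% ± 1.07 in DMSO, 54.6% ± 1.86 under 5 µM and 60.3% ± 2.33 under 10 µM, and EFNB2 held nearly all of the rest. The share of EFNB2 thus grew at 5 µM while its mean FPKM was 0.798 of the control.

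**Figure D3:**
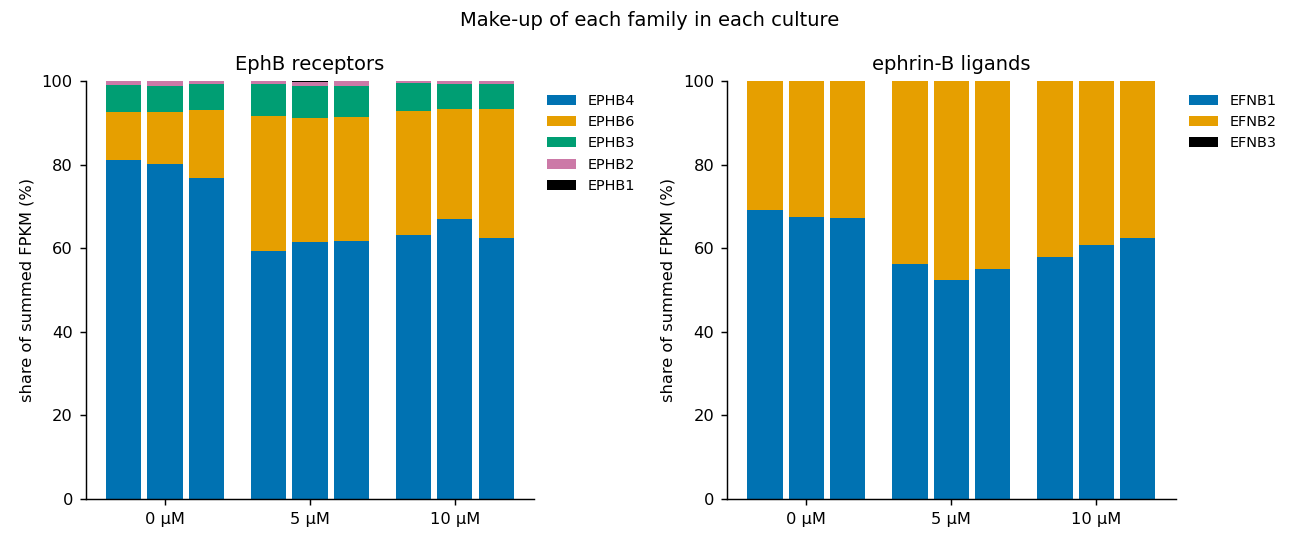
Share of each receptor in the summed EphB FPKM (left) and of each ligand in the summed ephrin-B FPKM (right), in percent, with 1 stacked bar for each of the 9 cultures, grouped by 5-Aza concentration. EPHB4 takes 76.7% to 81.1% of the receptor sum in the control and 59.3% to 66.9% after 5-Aza, and the share of EPHB6 is larger there, as shares of a fixed whole move against each other.

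Ratios between pairs of members showed which of them kept step. EFNB1 over EPHB4 was 1.02, 0.979 and 0.921 in DMSO, 1.01, 1.04 and 1.01 under 5 µM and 0.906, 1 and 0.949 under 10 µM, a mean of 0.982 ± 0.0463 (SD) over the 9 cultures. This ligand and this receptor thus kept nearly the same proportion in every group, also in 10 µM replicate 2, where both were highest among the treated cultures. The factor for median-of-ratios scaling was 1.055 in that library, against 0.8353 and 0.8571 in 10 µM replicates 1 and 3. EPHB3, EFNB2 and EPHB6, but not EPHB2, were also highest there among the 10 µM cultures, so the high values in that library are not particular to this pair. EPHB4 over EPHB6 was 7.13, 6.39 and 4.71 in DMSO, 1.84, 2.08 and 2.09 under 5 µM and 2.14, 2.53 and 2.02 under 10 µM. EFNB1 over EFNB2 was 2.25, 2.07 and 2.06 in the control, then 1.28, 1.1 and 1.23, then 1.37, 1.55 and 1.66. For both of these ratios the control cultures lay above all treated cultures. EPHB3 over EPHB2 was 5.61 to 7.4 in DMSO, 6.24 to 9.73 under 5 µM and 8 to 13.8 under 10 µM, with overlap of neighbouring groups.

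**Figure D4:**
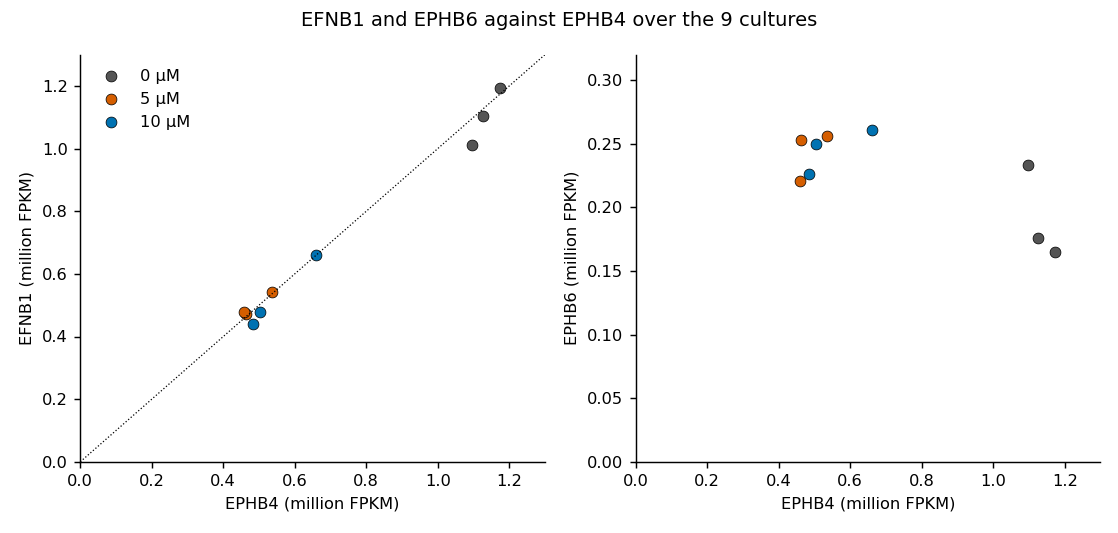
FPKM of EFNB1 (left) and EPHB6 (right) against FPKM of EPHB4 in the 9 cultures, both axes linear, in the units printed on them and starting at 0, coloured by 5-Aza concentration, with equal levels as a dotted line on the left. The cultures lie along that line on the left, where EFNB1 over EPHB4 is 0.906 to 1.04, while on the right the controls stand apart with more EPHB4 and the EPHB6 values overlap between groups.

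The 250 bases upstream of the start of EFNB1 and EPHB4, which moved together, are set out here with those of EPHB2, which has the most CG sites among the 7 members matched in the promoter table. They are RefSeq sequences on GRCh38.p14, read in the direction of the gene, with each CG dinucleotide, the site that DNA methyltransferases act on, in capitals. EFNB1 is chrX:68828771-68829020 (plus strand), EPHB4 is chr7:100827524-100827773 (minus strand) and EPHB2 is chr1:22710588-22710837 (plus strand), the first of 2 listed windows that lie 1 base apart.
EFNB1: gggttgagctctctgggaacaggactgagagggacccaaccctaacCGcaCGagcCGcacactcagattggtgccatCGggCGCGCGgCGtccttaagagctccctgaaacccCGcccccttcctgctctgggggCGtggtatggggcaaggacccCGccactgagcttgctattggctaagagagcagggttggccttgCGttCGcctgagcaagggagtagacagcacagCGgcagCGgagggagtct
EPHB4: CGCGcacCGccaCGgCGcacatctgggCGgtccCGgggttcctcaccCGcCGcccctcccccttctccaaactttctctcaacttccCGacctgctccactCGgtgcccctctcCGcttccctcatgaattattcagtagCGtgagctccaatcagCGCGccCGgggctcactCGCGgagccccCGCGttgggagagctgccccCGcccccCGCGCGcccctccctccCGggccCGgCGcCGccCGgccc
EPHB2: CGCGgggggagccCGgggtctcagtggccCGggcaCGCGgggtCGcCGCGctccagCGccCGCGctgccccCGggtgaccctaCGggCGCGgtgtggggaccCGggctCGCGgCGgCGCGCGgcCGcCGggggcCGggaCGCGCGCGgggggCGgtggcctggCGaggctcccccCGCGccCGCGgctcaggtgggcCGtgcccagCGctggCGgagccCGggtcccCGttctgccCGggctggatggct

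The windows of 6 members end at the annotated start of the gene, and they differ widely in CG content. EPHB2 has 42 CG sites, EFNB2 40, EPHB4 29, EPHB3 21, and EFNB1 and EPHB1 15 each. The median over 35116 RefSeq promoter windows of the same length is 11, and 98.6% of them have fewer sites than EPHB2, 85.9% fewer than EPHB4 and 57.1% fewer than EFNB1. The listed window of EPHB6, which has 3 sites, precedes an inner start that lies 7691 bases into the gene. Before the start of its main transcript, EPHB6 has 36 CG sites in 250 bases of GRCh37. EFNB3 was not matched in the promoter table. The letters GGGCGG, on either strand, were found in 6 of the 6 windows at a gene start and in 42.6% of all windows, and CCAAT, on either strand, in 5 of 6 (not EPHB2) and in 32% of all. A match of letters is no evidence of a bound factor, and DNA methylation was not measured in the files used here.

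The genes most like each member over the 9 cultures were sought by Pearson's r of log2(FPKM + 1) among 15273 genes, as a description with no test, since the cultures fall into treated and control groups and share their libraries. EFNB1 was closest to SLC7A5 (r = 0.997), an amino acid transporter, and PYGB (r = 0.995), a glycogen phosphorylase. EPHB4 was closest to SLC44A4 (r = 0.997) and GPR35 (r = 0.996). Between EFNB1 and EPHB4 r was 0.99, and only 4 genes were closer to either. EPHB3 was closest to EPHA2 (r = 0.992), the EphA receptor of epithelial cells, and PPP1R26 (r = 0.989). EFNB2 was close to NBR1 (r = 0.997), an autophagy receptor, and EPHB2 to TRIB2 (r = 0.970). EPHB6 was closest to NAGPA (r = 0.967) and LOC728723 (r = 0.964). Among the 6 members compared in this way, EPHB6 had a negative r with each of the other 5, from -0.72 to -0.60.

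The EphA receptors and ephrin-A ligands, the other branch of the family, gave 2 called higher and 1 called lower of 13 tested at 5 µM vs. 0 µM (median log2 difference 0.11, against 0.14 for all genes). Of all genes tested, 14.1% were called higher and 2.17% lower in that comparison. EFNA3 rose from 13092 ± 1490 to 31329 ± 1769 FPKM (n = 3, log2 difference 1.26, limma adjusted p = 0.00108). EPHA7, listed at 0 in every control, reached 196 ± 11.6 FPKM (n = 3, limma adjusted p = 0.00249), which is 4 fragments in each library. These 5 µM libraries were deeper than the controls by the estimated library term. EPHA10 fell from 15476 ± 2711 to 7663 ± 1252 FPKM (n = 3, log2 difference -1.01, limma adjusted p = 0.0132). At 10 µM vs. 0 µM, 2 of 12 were called lower, EFNA2 (-1.06, limma adjusted p = 0.00996) and EPHA1 (-1.02, limma adjusted p = 0.00988), with a median of -0.53, beside 3.4% of all genes called lower. EPHA2 was at 1142827 FPKM in the control, close to EPHB4 per length, and fell by 0.57 at 5 µM (limma adjusted p = 0.00621) and by 0.82 at 10 µM (limma adjusted p = 0.0185). By the adjusted p alone, 2 rose and 6 fell at 5 µM (21.3% and 17.7% of all genes), and 5 fell at 10 µM (9.71% of all genes).

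Of 33 genes for proteins that carry Eph or ephrin signals inside the cell, 3 were called higher and 1 lower at 5 µM vs. 0 µM (7 and 12 by the adjusted p alone, median -0.20). Over all genes tested, 14.1% were called higher and 2.17% lower (21.3% and 17.7% by the adjusted p alone). RGS3, which binds the tail of ephrin-B and dampens G protein signals, fell from 547839 ± 14816 to 244515 ± 8283 FPKM (n = 3, log2 difference -1.16, SE 0.06, limma adjusted p = 0.000145) and stood at 253484 ± 37761 at 10 µM (log2 difference -1.12, SE 0.14, limma adjusted p = 0.00692). GRIP1 and GRIP2, PDZ adaptors that bind the same tail, rose at 5 µM with log2 differences of 1.07 (limma adjusted p = 0.0293) and 2.38 (limma adjusted p = 0.0163), from 3951 and 420 FPKM. TIAM1, an exchange factor for RAC1, was listed at 0 in every control and reached 189 ± 167 FPKM (n = 3, limma adjusted p = 0.00506), from 2, 2 and 9 fragments. As for EPHB1 and EFNB3, counts this low leave the size of such a difference unread. At 10 µM vs. 0 µM, 3 of 32 were called lower, RGS3, KALRN (-1.35, limma adjusted p = 0.0205) and the adaptor NCK2 (-1.05, limma adjusted p = 0.0496), with 9 by the adjusted p alone and a median of -0.48. Among all genes tested, 3.4% were called lower there, and 9.71% were lower by the adjusted p alone.

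The 9 enzymes that cleave Eph receptors or ephrins (ADAM10, ADAM17, RHBDL2 and the gamma-secretase subunits) had no gene past the fold limit in limma at either concentration, nor at an unadjusted p under 0.05 with that limit. By the adjusted p alone, 2 rose and 1 (RHBDL2, log2 difference -0.55, limma adjusted p = 0.0142) fell at 5 µM vs. 0 µM, beside 21.3% and 17.7% of all genes. The 5 adherens junction genes also had none past the limit by either p, with 3 lower by the adjusted p alone at 5 µM vs. 0 µM (17.7% of all genes). E-cadherin (CDH1) was at 2137177 ± 30857 FPKM in the control and 2051537 ± 200795 at 5 µM (n = 3, limma adjusted p = 0.594). At 10 µM vs. 0 µM, E-cadherin was at 1304373 ± 328015 FPKM (n = 3, log2 difference -0.74, limma adjusted p = 0.0586), and all treated cultures lay below the controls for 4 of the 5 junction genes, with a median of -0.67. That held for 26.7% of all genes tested. Of 8 TCF factors and intestinal Wnt target genes, the group to which EPHB2 and EPHB3 are known to belong, LEF1 was called higher and MYC lower at 5 µM vs. 0 µM, beside 14.1% and 2.17% of all genes tested. MYC fell from 991358 ± 111558 to 357311 ± 23553 FPKM (n = 3, log2 difference -1.47, limma adjusted p = 0.000297). LEF1 rose from 98 ± 170 to 1550 ± 164 FPKM (n = 3, limma adjusted p = 0.0377), with an estimated 0, 0 and 2.73 fragments in the control libraries. LGR5, the receptor that marks crypt base stem cells, was called lower at 10 µM, with 5722 ± 616 FPKM in DMSO, 7158 ± 166 under 5 µM and 1461 ± 738 under 10 µM (n = 3, log2 difference -2.12 vs. 0 µM, limma adjusted p = 0.0426, and -2.45 vs. 5 µM, limma adjusted p = 0.0336). Like EPHB2, LGR5 was lowest at 10 µM, although LGR5 at 5 µM was not below the control. LGR5 at 10 µM rested on an estimated 11.3, 24.2 and 6.46 fragments. From the same list, ASCL2 was higher at 5 µM vs. 0 µM (log2 difference 0.81, limma adjusted p = 0.00496) and at 0.01 at 10 µM vs. 0 µM. AXIN2 was at -0.09 and -0.07, so the list did not follow EPHB2 as a whole. Between 5 µM and 10 µM, LGR5 was the one gene that limma called among these 5 lists, beside 4.82% of all genes called lower.

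**Figure D5:**
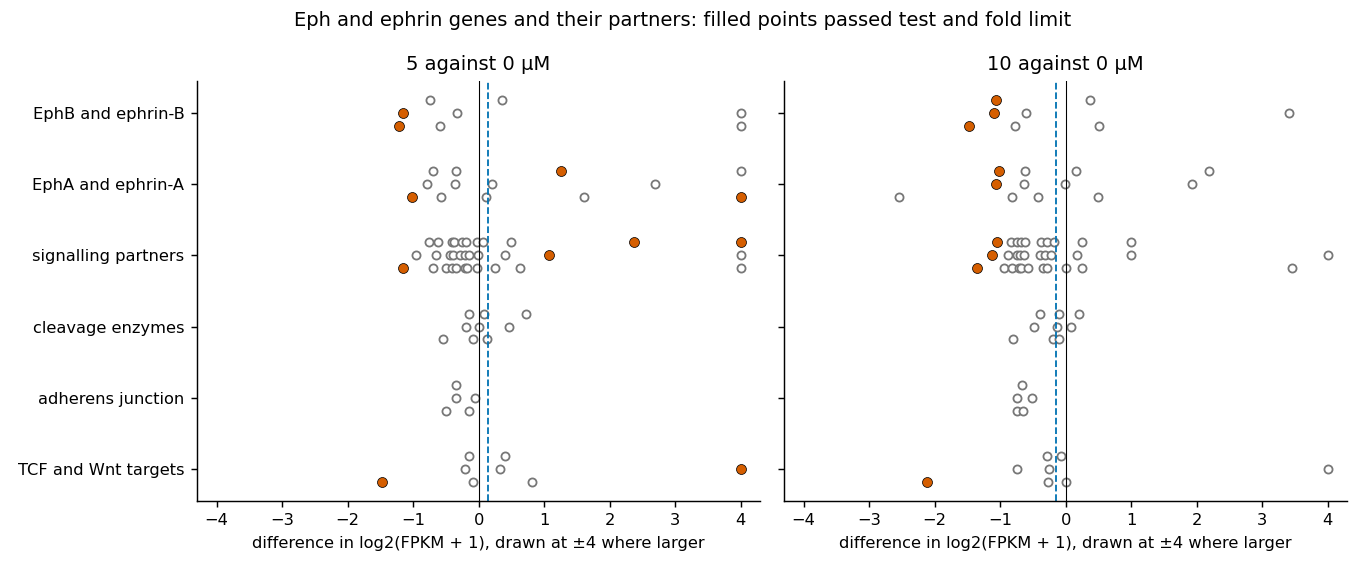
Difference in log2(FPKM + 1) at 5 vs. 0 µM (left) and 10 vs. 0 µM (right) for each tested gene of 6 lists (points, genes, spread vertically for legibility; filled, passed the limma test and the fold limit; values beyond 4 drawn at the edge; dashed line, median of all genes tested, 0.14 and -0.15). The filled EphB and ephrin-B points are on the lower side alone, 2 on the left and 3 on the right. On the right, the filled points of the other lists are also on the lower side alone (2 EphA and ephrin-A, 3 signalling partners, 1 TCF and Wnt target).

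Markers and reference genes moved in the same comparisons. The summed FPKM of the 8 colon epithelial markers was 74247025 to 89252322 in DMSO, 28951438 to 33070587 under 5 µM and 23463512 to 41252120 under 10 µM. KRT8 (log2 difference -1.65, limma adjusted p = 0.00113) and KRT18 (-1.64, limma adjusted p = 0.000999), the keratins that make up most of that sum, fell at 5 µM, whereas CDX1 rose (2.14, limma adjusted p = 0.00073), and CDX2 (-1.38, limma adjusted p = 0.00996) and KRT20 (-1.31, limma adjusted p = 0.0344) fell at 10 µM. At 10 µM vs. 0 µM, KRT8 (-1.53, limma adjusted p = 0.135) and KRT18 (-1.46, limma adjusted p = 0.124) did not pass. Limma called 1 of the 8 higher and 2 lower at 5 µM vs. 0 µM, beside 14.1% and 2.17% of all genes tested. By the adjusted p alone, 2 were higher, CDX1 and CDH17 (0.62, limma adjusted p = 0.00265), and 5 lower, beside 21.3% and 17.7%. At 10 µM vs. 0 µM, 0 were called higher and 2 lower, beside 4.07% and 3.4%. Of 12 markers of other cell types, 7 were called higher at 5 µM vs. 0 µM, beside 14.1% of all genes tested. The summed FPKM of the 12 was 133868 to 139881 in DMSO, 719612 to 769921 under 5 µM and 225607 to 378652 under 10 µM. CD68 made up most of it, while CD3E, CDH5 and HBB were listed at 0 in all control libraries, DCN in all at 5 µM and COL1A2 in all at 10 µM. GAPDH was at 10097800 ± 1335537 FPKM in DMSO, 6096160 ± 318069 under 5 µM and 6542330 ± 2260685 under 10 µM (n = 3). Relative to GAPDH, EFNB1 was 0.103 to 0.118 in DMSO, 0.0745 to 0.0883 under 5 µM and 0.071 to 0.105 under 10 µM, and EPHB4 was 0.106 to 0.128, 0.0717 to 0.0874 and 0.0748 to 0.115. On that scale the 5 µM mean was 0.743 of the control mean for EFNB1 and 0.704 for EPHB4, within the fold limit and a smaller step than in FPKM, though every culture at 5 µM was below every control. At 10 µM it was 0.766 and 0.781, and replicate 1 overlapped the control. The part of these markers in the fall of EFNB1 and EPHB4 was not tested. All cultures hold the same cell line, and in its bulk RNA, fewer cells with a transcript and less of it per cell cannot be told apart.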

How the data were processed

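Paired-end RNA-Seq libraries of 9 HT-29 cultures were grouped by the 5-Aza concentration in the sample labels (0, 5 and 10 µM, 3 each). The authors aligned reads to hg19 with TopHat, computed FPKM with Cufflinks and deposited 1 FPKM value for each of 24934 gene entries. The annotation version is not given in the sources used here. Entries with the same symbol were summed (543 symbols, 0 members). Raw gene counts were not used here.

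Values were taken as log2(FPKM + 1). Genes with a largest value of at least 10 in either group were fitted in limma 3.58.1 (R 4.3.3, lmFit and eBayes with a trend) for each pair of groups, with Benjamini-Hochberg adjustment over all genes tested (20051, 20085 and 18928). The study's limits were used for calls: an adjusted p up to 0.05 together with a difference beyond 1 on the log2 scale, in either direction. A gene passed the test by that adjusted p alone. The exact permutation test cannot go below p = 0.1 with 3 against 3. The fit was tested on simulated data: 100% of 200 genes changed by 2 on the log2 scale, more than any called member, were recovered in each comparison, with 1 to 3 false calls. The changed genes were drawn only from genes above the level of EPHB2, and low genes were left out. The same spread was set for every gene, with no shift across the transcriptome. The simulation therefore does not speak to calls close to the fold limit, such as those of EFNB1 and EPHB4. Nor does it speak to the calls of EPHB2, to EPHB1 and EFNB3 or to the shift at 10 µM.

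The files give no read totals, and the study states reads only as a range over all libraries. The step of 1 fragment was estimated from 46 values above 0 at microRNA genes of 110 nucleotides, all whole within 0.01, and from the relation of step to length at 285 low genes, of which 197 lay within 15%. The smallest of these microRNA values in each library was itself taken as 1 fragment, and the relation was fitted on the same low genes. Neither figure is therefore an independent check. Fragment numbers are estimates, and counting error adds to the spread between replicates where they are few. An FPKM of 0 is called listed at 0.

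The members and the gene lists were chosen with earlier results of these data known. The text names all members, the called genes of each list (at most 4), the closest genes by Pearson's r to each member above 0 in all 9 libraries, and GAPDH, apart from some results under this rule that are not reported here. EPHA2, RHBDL2, CDH1, ASCL2, AXIN2 and SLC12A9 were named after their values were seen. Positions are those of GRCh37 (GENCODE), and promoter sequences come from RefSeq on GRCh38.p14. Alternatives were pseudocounts of 0.1 and 1000, other filters, no fold limit, limma's treat, all 9 samples in one fit, median-of-ratios scaling, the largest entry of a symbol, the replicate block and leaving out each replicate. Replicate numbers come from the labels. The software for tables and plots was scipy 1.17.1, numpy 2.4.6, pandas 2.3.3 and matplotlib 3.10.9.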

Additional observations from a re-analysis of the deposited data

How the results depend on the processing

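The members called lower at 5 µM vs. 0 µM were 2 under most alternatives, 4 with no fold limit and 0 under limma's treat, which tests against a fold of 2, and at 10 µM vs. 0 µM they were 3, against 1 with median-of-ratios scaling and 0 under treat. Leaving out 1 library in turn gave 2 members lower at 5 µM vs. 0 µM in each case, 0 to 1 member higher at 5 µM vs. 0 µM and 0 to 3 members lower at 10 µM vs. 0 µM; fewer samples enter those fits. Of the members' log2 differences, 8 changed sign, all of them differences that passed no test: EPHB3 at 10 µM vs. 5 µM was 0.01 with median-of-ratios scaling, EPHB6 at 10 µM vs. 5 µM ranged from -0.05 to 0.07 with 1 library left out in turn (-0.05 without 5 µM replicate 2, -0.03 without 10 µM replicate 2), EFNB1 from -0.11 (without 10 µM replicate 2) to 0.18, and EFNB3 from -4.33 to 0.49 (without 10 µM replicate 3), and EPHB1 at 10 µM vs. 0 µM ranged from -2.03 to 3.27, with -2.03, -0.73 and -1.05 without control replicate 1, 10 µM replicate 2 and 10 µM replicate 3. The cause was not tested. Another 351 values of the members under the alternatives kept their direction and side of the threshold. With the replicate number as a block the members called stayed at 2 lower at 5 µM vs. 0 µM, 0 at 10 µM vs. 5 µM and 3 at 10 µM vs. 0 µM, and over all genes limma called 11 higher and 407 lower at 10 µM vs. 5 µM, against 26 and 969 without it. Deviations from the group means correlated at -0.07 to 0.09 between libraries with the same number and -0.16 to 0.10 between others, so the numbers were not taken as pairs. Over all genes, calls at 5 µM vs. 0 µM were 4263 higher and 3553 lower with no fold limit and 1463 and 70 under treat, and at 10 µM vs. 0 µM 488 and 271 with no filter on low values and 145 and 16 under treat, 1837 lower with no fold limit and 1174 higher with all 9 samples in one fit. At 10 µM vs. 5 µM the calls were 7 and 374 under treat, and 17 higher with no filter, 64 with no fold limit and 55 with median-of-ratios scaling. Leaving out 1 library gave 12 to 64 higher and 176 to 1873 lower at 10 µM vs. 5 µM, and 337 to 819 higher and 165 to 1500 lower at 10 µM vs. 0 µM. The spread rests on 3 cultures a group, and EPHB1, EFNB3 and in part EPHB2 on few fragments.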
